A study of Mus musculus with 18 samples.

Results

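Interferon-stimulated genes are the genes that a cell switches on when it receives interferon, the cytokine that warns tissues of viral infection. A list of 45 such mouse genes was followed through 9 sorted populations of myeloid cells. Each listed symbol was looked up in the deposited expression table, and where a symbol had several rows the row with the highest mean was kept. The table held 42 of the 45, among 16210 genes in all, and Ifi27, Lgals3bp2 and Phf11d have no row under these symbols and were not analysed here. All 42 passed the filter on low values, which 11988 genes of the table passed.

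The cells came from C57BL/6 mice, with no genotype other than this strain and no treatment given in the labels, and the sources used here give neither age nor sex nor sorting gates. Brain microglia, peritoneal macrophages, macrophages of the ileum (small intestine) and colon (large intestine), splenic red pulp macrophages, liver Kupffer cells, lung macrophages, and bone marrow monocytes and neutrophils were sorted. Each population had 2 libraries of polyadenylated RNA, 18 in all. Microglia, peritoneal and both intestinal populations were made in experiment 1 and the other 5 populations in experiment 2. No population was made in both, so across the experiments an effect of tissue and an effect of experiment cannot be told apart. Each population was therefore compared with the mean of the other populations of its own experiment.

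Interferons alpha and beta signal through the receptor made of Ifnar1 and Ifnar2 and the kinases Jak1 and Tyk2 to a complex of transcription factors that includes Stat2 and Irf9 and binds the interferon-stimulated response element (ISRE) in the promoters of their targets. Interferon gamma uses its own receptor. Irf7, itself an interferon-stimulated gene, amplifies the response, and many of these genes are transcribed at a low level in cells that have met no virus.

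The response element is shown first, for those members whose promoter held its core. Its core was searched as a GAAA followed, after any 2 bases, by another GAAA, on both strands, so that cores which overlap each other count separately. Promoters were taken from RefSeq on build GRCm38.p6, from 250 bases before to 50 after each start of a gene. The table of promoters held 32 of the 42 members. The following cores are read on the strand that carries them, with 5 flanking bases on either side and the core in capitals, and all are on the minus strand; Isg15, whose product is a ubiquitin-like protein, has 3 overlapping cores (chr4:156200887-156200896, chr4:156200881-156200890 and chr4:156200875-156200884), and the others are at chr19:34640785-34640794 and chr19:34640804-34640813 for Ifit1, chr5:120907530-120907539 for Oas1a and chr7:141010716-141010725 for Ifitm3.
Isg15, first core: cgtagGAAAAGGAAAccgaa
Isg15, second core: aaaagGAAACCGAAAcagaa
Isg15, last core: aaaccGAAACAGAAAatagc
Ifit1, far core: gactgGAAAGTGAAActgaa
Ifit1, near core: agtgaGAAACTGAAActgag
Oas1a, near core: aaatgGAAACTGAAAatcta
Ifitm3, second core: tctgaGAAACCGAAActgcc

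Longer windows of 120 bases around the core are given for 3 members whose levels the results below turn on. They are written 5′ to 3′ on the strand of the gene, with the core in capitals. Rsad2 (chr12:26456508-26456627, minus strand) and Gbp3 (chr3:142559947-142560066, plus strand) carry the core on the opposite strand, so that it reads there as TTTC, and Oas3 (chr5:120777670-120777789, minus strand) carries it on its own strand. Gbp3 has 2 overlapping cores, which form 1 run of capitals.
Rsad2: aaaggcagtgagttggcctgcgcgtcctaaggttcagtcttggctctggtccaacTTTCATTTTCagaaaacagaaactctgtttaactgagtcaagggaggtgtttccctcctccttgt
Gbp3: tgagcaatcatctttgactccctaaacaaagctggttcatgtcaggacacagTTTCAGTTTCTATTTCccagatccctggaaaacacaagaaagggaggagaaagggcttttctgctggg
Oas3: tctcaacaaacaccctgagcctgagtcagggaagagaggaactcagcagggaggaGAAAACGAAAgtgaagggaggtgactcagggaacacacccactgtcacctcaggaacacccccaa

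Of the promoters of members, 18 of 39 (46.2%) held a core, against 1131 of 32851 promoters (3.44%) in the whole reference table. The 18 belong to 16 genes, namely Bst2, Ddx58, Eif2ak2, Gbp2, Gbp3, Ifih1, Ifit1, Ifit3, Ifitm3, Isg15, Oas1a, Oas3, Rsad2, Slfn5, Slfn8 and Trim30a. The other 16 of the 32 members with a promoter held no core in the window. The gamma-activated site (GAS), the motif of the interferon gamma response, searched as TTC and GAA with 3 bases between them, a form that reads the same on both strands, was in 20.5% of the members' promoters and in 8.3% of all. A match describes these letters in this window, and neither binding nor use was measured. The plot of motif positions shows that the cores of the 16 genes begin between 156 bases before and 33 bases after the start.

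**Figure D1:**
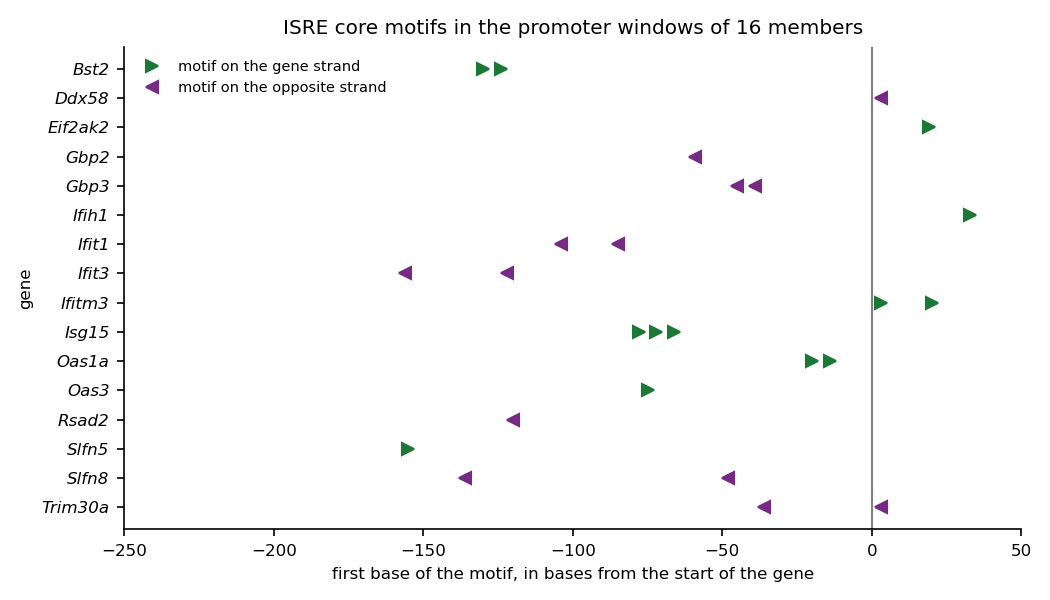
Position of each ISRE core in the promoter windows of 16 members, in bases from the start of the gene (horizontal axis), with one row per gene; arrowheads show the strand. Most cores begin before the start, between -156 and -14, and those of Ddx58, Eif2ak2, Ifih1, Ifitm3 and 1 promoter of Trim30a begin 3 to 33 bases after it; Slfn8 and Trim30a have more than one start.

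All levels are normalised reads as deposited, written in the order of the replicate numbers. The libraries held 587794 to 1580523 reads in genes, and 3 reads, taken as the limit for a gene listed at 0, were worth 1.69 to 6.59 normalised reads, which covers counting error only. Differences are log2 fold changes on the value plus 1.11, given ± SE, so that changes of low genes come out too small. Because the reference is a mean of log2 values, a single low population lowers it. A gene was called, and is said to have risen or fallen, at an adjusted p under 0.05 and a log2 fold change of 1 or more in either direction; all such p-values are limma's, with Benjamini-Hochberg adjustment over the 11988 genes. The 2 libraries of a population are not stated to come from separate mice, so the p-values measure only the spread between these samples, and in bulk RNA fewer expressing cells and less RNA per cell cannot be told apart. The summed marker genes of neutrophils, microglia, Kupffer cells and the lung, peritoneal and red pulp macrophages were each highest in both libraries of their own population, whereas the monocyte markers were higher in neutrophils (15780 to 16450) and lung macrophages (4714 to 8179) than in monocytes (4012 to 4159), and those of intestinal macrophages were higher in microglia (7337 to 8714) than in either intestinal population (1040 to 1424). The microglia sum was Cx3cr1 alone, since the other intestinal markers, Il10 and Cd163, were at 0 in both microglia libraries. None of these 3 markers was at 0 in both libraries of either intestinal population. Clec4f, which marks Kupffer cells, was at 9598 and 6269 there, at means of 31 to 85.7 in the other 4 populations of experiment 2, which is 0.39% to 1.08% of the Kupffer mean, and at 0 throughout experiment 1.

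Levels differed among the 9 populations for nearly every member, in a comparison where tissue and experiment cannot be told apart. By an F test over the 9 populations 40 of 42 members differed, against 66.9% of all tested genes; the others were Parp14 (adjusted p = 0.0977) and Herc6 (adjusted p = 0.345). Inside experiment 1 the F test called 20 members (35.5% of all genes), and inside experiment 2 it called 38 (51.3%). The extremes were a pair of tissue macrophages. Kupffer cells had the highest mean of the 9 populations for 20 members, against 7.92% of all tested genes, and lung macrophages had the lowest for 26, against 10% of all genes. Lung macrophages were the highest for 0 members and Kupffer cells the lowest for 0.

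After centring each member on its mean over the 18 libraries, the median member stood 1.13 and 1.34 above its mean (log2) in the Kupffer libraries and at -1.81 and -1.40 in the lung libraries. It stood at 0.71 and 0.56 in monocytes, 0.62 and 0.62 in neutrophils, 0.41 and 0.53 in spleen and 0.27 and 0.02 in the small intestine. Microglia (-0.56 and -0.52), peritoneal macrophages (-0.46 and -0.45) and the large intestine (-0.51 and -0.34) were below. The median over all tested genes ran from -0.31 in a neutrophil library to 0.14 in a small intestine library. Neutrophils also had the largest column totals.

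**Figure D2:**
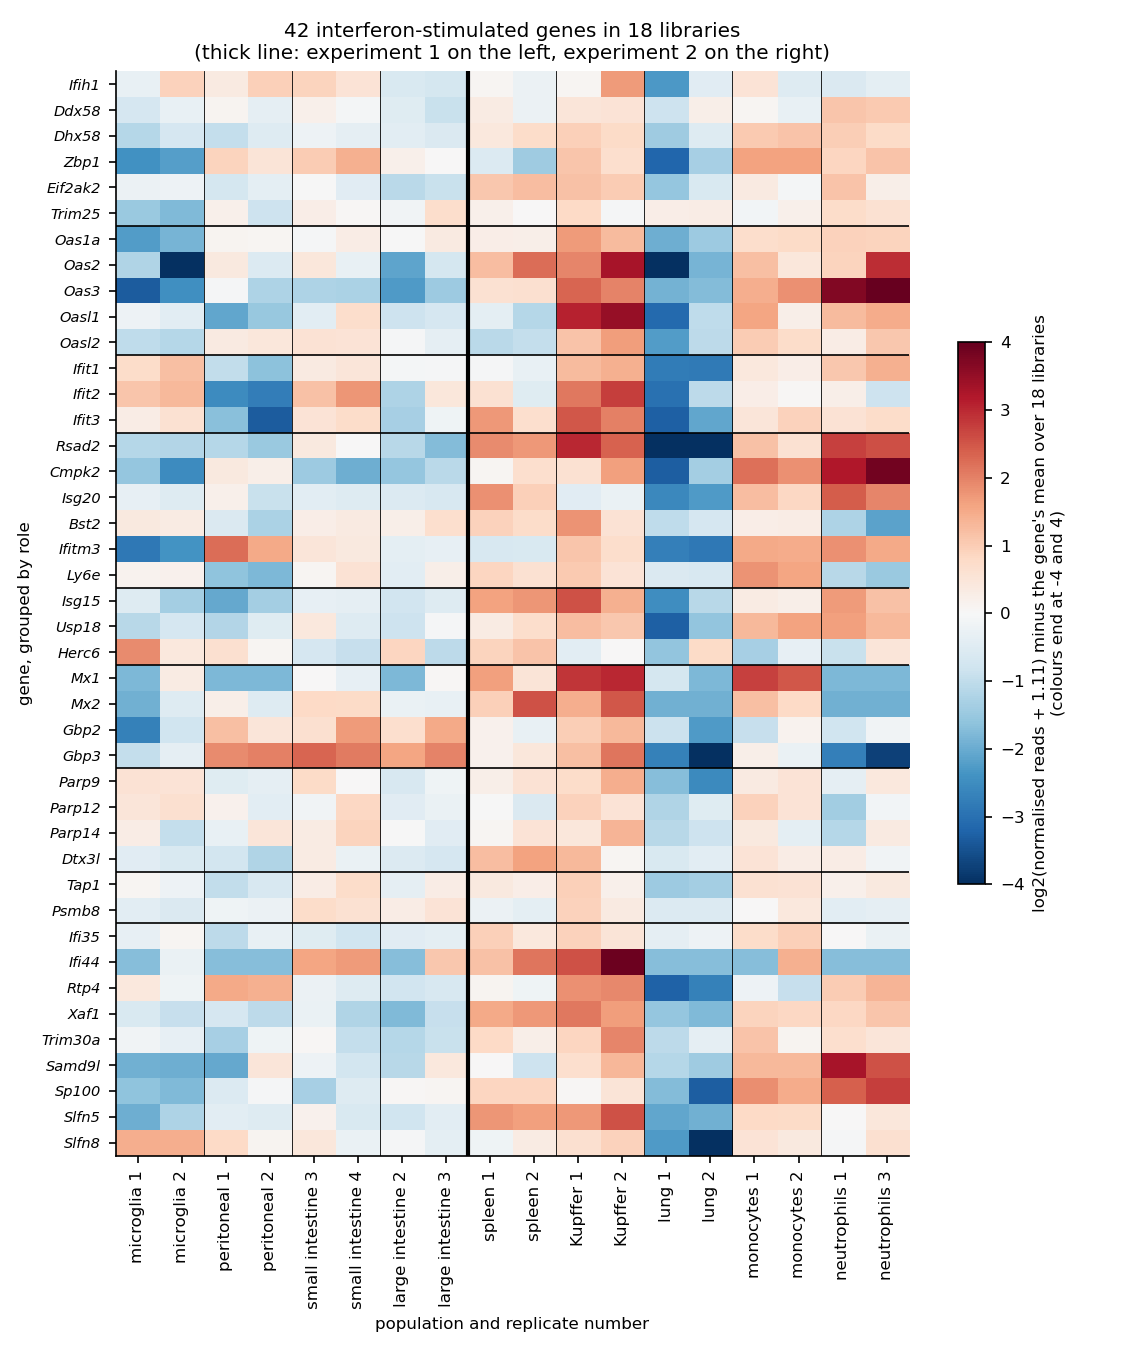
Level of each of the 42 members (rows, grouped by role) in each library (columns), as log2 of normalised reads plus 1.11 minus the member's mean over 18 libraries, red above and blue below that mean. The lung columns are blue for most rows, with medians of -1.81 and -1.40, the Kupffer columns are red for most, with medians of 1.13 and 1.34, and the neutrophil columns hold both dark red and dark blue rows.

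In lung macrophages members of every role were low. Against the other 4 populations of experiment 2, 35 of 42 members fell (83.3%, against 8.82% of all genes) and 0 rose (9.05%), also 0 by limma at an unadjusted p under 0.05. The median log2 fold change was -2.58, or -2.52 with Ifi44 and Mx2, which were listed at 0 in both lung libraries, placed at their limit of 3 reads; the median of all tested genes was close to 0. None of the 42 members had a positive value. For 25 members both lung libraries lay below every other library of experiment 2, which held for 4.23% of all tested genes.

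All 6 antiviral effectors fell. Rsad2 (viperin), an enzyme that makes a chain-terminating nucleotide, was at 5.69 and 3.32 normalised reads in lung macrophages, against 900.4 and 565 in Kupffer cells, 736 and 668 in neutrophils, 414 and 368 in spleen and 249 and 167 in monocytes. The lung libraries did not overlap any other, in either experiment, and the log2 fold change was -6.35 ± 0.26 (adjusted p = 1.33e-11). Cmpk2, a mitochondrial nucleotide kinase whose gene neighbours that of Rsad2, was at 0.632 and 5.53 in lung with a log2 fold change of -4.09 ± 0.51 (adjusted p = 1.07e-05). Isg20, an exonuclease that degrades RNA, was at 9.48 and 12.2 in lung against 45.7 or more in the other libraries of experiment 2, with a log2 fold change of -3.50. Ifitm3, a membrane protein that blocks fusion of entering viruses, was at 40.5 and 37.1 in lung and at 177 or more elsewhere in the experiment, with a log2 fold change of -3.66. Bst2 (tetherin), which holds budding virions at the cell surface, and Ly6e, a lipid-anchored surface protein, fell with log2 fold changes of -1.01 and -1.10.

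The families of enzymes and adaptors that recognise viral RNA followed. All 5 members of the OAS family, which includes the synthetases that activate RNase L and their relatives without that activity, fell in lung macrophages. Oas2 was listed at 0 and 4.43 in lung against 26.1 or more in the rest of the experiment, a log2 fold change of -4.79 ± 0.74 (adjusted p = 0.000115). Oas3 was at 1.9 and 2.21, and its log2 fold change was -3.92 ± 0.50 (adjusted p = 1.49e-05). Oasl1, Oas1a and Oasl2 had log2 fold changes of -3.27, -2.55 and -2.14. The IFIT proteins, which bind viral RNA ends, showed the same direction: Ifit3 was at 3.79 and 9.96 in lung against 64.4 to 262 in the other libraries of experiment 2, with a log2 fold change of -3.89 ± 0.43 (adjusted p = 2.57e-06). Ifit1 and Ifit2 had log2 fold changes of -3.51 and -2.60.

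Among the sensors, the RNA helicase Ifih1 (MDA5), its regulator Dhx58, the nucleic acid sensor Zbp1 and the kinase Eif2ak2 (PKR) fell, with log2 fold changes of -1.47, -1.81, -2.88 and -1.85. The helicase Ddx58 (RIG-I) did not pass the test, at 22.1 and 47.6 in lung and a log2 fold change of -0.67, nor did the ubiquitin ligase Trim25, at 35.7 and 36.5 and -0.03. The other members that did not pass were Herc6, Parp12, Parp14, Psmb8 and Ifi35, with log2 values from -1.18 to -0.35. In the ISG15 system, Isg15 was at 46.1 and 122 in lung against 312 to 1531 in the other libraries of experiment 2, a log2 fold change of -3.14, and Usp18, the protease that removes Isg15 and dampens receptor signalling, was at 0.632 and 4.43, a log2 fold change of -3.58. The guanylate-binding GTPase Gbp3 was at 5.69 and 0, with a log2 fold change of -3.70 ± 0.48 (adjusted p = 1.53e-05), and its relative Gbp2 of -1.62. Of the others, Sp100, a protein of nuclear bodies, had a log2 fold change of -3.87 ± 0.35 (adjusted p = 2.5e-07) and Slfn8, of the Schlafen family, of -3.80 ± 0.41 (adjusted p = 1.88e-06).

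Over the members, the lung libraries agreed less well with each other than the libraries of other populations did: 17 members differed between them by more than 1 on the log2 scale, against 2 to 9 in the other populations. The 9 belong to Kupffer cells, whose libraries agreed least over all tested genes (Spearman correlation 0.867, against 0.886 in lung). The lung and Kupffer p-values use the pooled spread and so do not fully reflect this. With any 1 library left out, 29 to 36 members were called. With Kupffer cells left out of the reference 30 members fell (9.64% of all genes) and 0 rose (10.5%). Across the experiments, with the confounding stated above, the median member was 1.81 lower (log2) than in the small intestine, 1.35 lower than in the large intestine, 0.93 lower than in peritoneal macrophages and 0.74 lower than in microglia. Both lung libraries carried the lung marker genes (summed level 2520 to 2750) and also epithelial markers, with Sftpc (surfactant protein C) at 738 and 846; the part of epithelial RNA in these values was not tested.

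**Figure D3:**
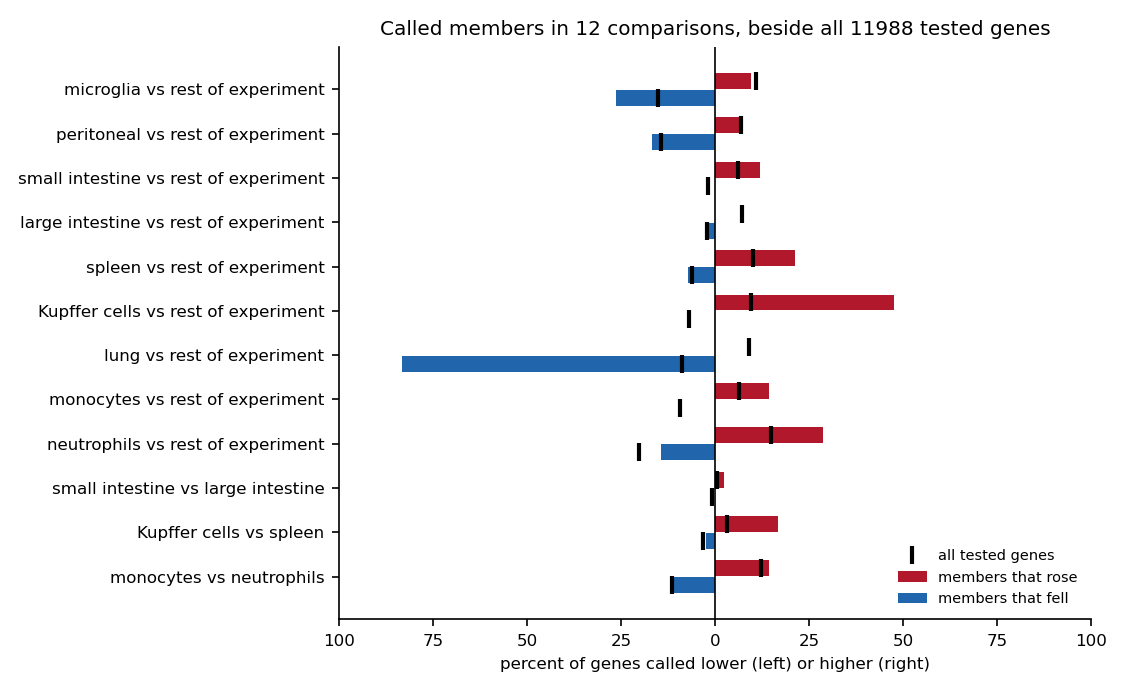
Share of the 42 members called higher (red, to the right) or lower (blue, to the left) in each of 12 comparisons, with black ticks for the share of all 11988 tested genes. The lung bar reaches 83.3% on the lower side against a tick at 8.82%, and the Kupffer bar 47.6% on the higher side against 9.48%.

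Kupffer cells were the opposite pole. Against the rest of experiment 2, 20 of 42 members rose (47.6%, against 9.48% of all genes) and 0 fell (6.97%), with a median log2 fold change of 1.28. By limma at an unadjusted p under 0.05, 30 were higher and 1 was lower. For 12 members both Kupffer libraries lay above every other library of the experiment, against 5.89% of all tested genes. Part of this distance is set by the lung: with lung macrophages left out of the reference, 11 members rose (11.1% of all genes) and 2 fell (8.12%), and the 2 were Isg20 (-1.89 on the log2 scale) and Sp100 (-1.42). The 11 that rose in both comparisons were Ifi44, Oasl1, Gbp3, Ifit2, Mx1, Rtp4, Gbp2, Ifit3, Bst2, Slfn5 and Oasl2.

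Oasl1, which represses the translation of Irf7 in mouse cells, was at 266 and 349 normalised reads in Kupffer cells, at 92.1 and 36.1 in monocytes, 74.4 and 87.9 in neutrophils, 22.9 and 13.1 in spleen and 2.53 and 14.4 in lung. Its Kupffer libraries were above all other 16 libraries, with a log2 fold change of 3.42 ± 0.48 (adjusted p = 4.81e-05), or 2.77 without the lung. Oasl2 and Oas1a, of the same family, rose by 1.68 and 1.44, and Oas2 by 2.26. Oas3 was at 54.9 and 42.7 and did not pass (log2 fold change 1.04).

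All 3 IFIT genes rose. Ifit2 was at 58.2 and 91.9 in Kupffer cells against 0.632 to 19.9 in the other libraries of the experiment, with a log2 fold change of 2.96 ± 0.58 (adjusted p = 0.00115). Ifit3 was at 262 and 192, with spleen replicate 1 the nearest at 156, and rose by 2.28 ± 0.43 (adjusted p = 0.000791). Ifit1 was at 113 and 127, a range that overlapped the neutrophils (99.4 and 124), and rose by 1.70.

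The interferon-induced GTPases rose as well, 4 of 4. Gbp3 was at 101 and 195, Gbp2 at 72.8 and 91.9, Mx1 at 27 and 30.3 and Mx2 at 10.4 and 22.2 normalised reads in Kupffer cells. Their log2 fold changes were 3.41, 1.76, 2.78 and 2.24. Mx2 overlapped the spleen libraries (6.98 and 23.4) and was not called without the lung in the reference. Mx1 blocks the replication of influenza virus, but C57BL/6 mice carry a deletion in it and make no working protein. Ifi44, a gene of unsettled function, was at 19.8 and 53.5, above all other libraries and well apart between its own pair; its log2 fold change was 3.70 ± 0.77 (adjusted p = 0.00203), and it was no longer called (adjusted p = 0.0696) without Kupffer replicate 2. Rtp4, a chaperone of receptors, was at 336 and 353 and rose by 2.48 ± 0.26 (adjusted p = 1.55e-06).

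Other members of Kupffer cells were high but not apart. Rsad2 rose by 2.43 ± 0.26 (adjusted p = 2.42e-06), yet its libraries overlapped those of neutrophils, and without the lung its log2 fold change of 0.90 was under the threshold. Isg15 was at 1531 and 711, overlapping neutrophils (863 and 598) and spleen (805 and 887), and rose by 1.58. The subunits of antigen processing, Psmb8 of the immunoproteasome and the peptide transporter Tap1, had log2 fold changes of 0.89 and 0.63 and did not pass.

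Spleen red pulp macrophages, which like Kupffer cells clear blood cells from the circulation, served as the nearest comparison. Set against the spleen alone, 7 members rose in Kupffer cells (3.09% of all genes) and 1 fell (3.06%), with 37 of 42 values positive and a median of 0.81. The OAS family made up 3 of the 7: Oasl1 (log2 fold change 4.05 ± 0.60, adjusted p = 0.000352), Oasl2 (2.42, from 23.9 and 26.3 in spleen to 115 and 169 in Kupffer cells) and Oas1a (1.23). The others were Rtp4 (1.91), Zbp1 (1.87), Ifitm3 (1.55) and Ifit1 (1.53). Isg20 fell, with a log2 fold change of -1.74, from 226 and 123 in spleen to 45.7 and 52.5 in Kupffer cells; without spleen replicate 1 its log2 value was -1.31 and was not called. Without spleen replicate 2, 5 members were called, 4 higher and 1 lower.

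Markers of other liver cells moved with the Kupffer libraries. The summed level of 5 markers of hepatocytes and liver endothelium was 1120 to 2288 there, 423 to 549 in spleen and 11.1 to 46.9 in the rest of experiment 2, with albumin at 1109 and 168; in spleen this sum was mostly Stab2 (412 and 533). Erythroid markers summed to 5503 to 11000 in Kupffer cells, 15270 to 20770 in spleen and 388 to 2143 in lung. Markers of plasmacytoid dendritic cells, the cells that make much of the body's type I interferon, summed to 29.1 to 70.7 in Kupffer cells and 89.7 to 111 in lung. Of these 8 markers, 2 were at 0 in both Kupffer libraries, 1 in both lung libraries and 4 in both monocyte libraries. T and NK cell markers, the usual sources of interferon gamma, summed to 3.12 to 8.08 in Kupffer cells and 25.3 to 63.1 in lung. The part of hepatocyte, endothelial and erythroid RNA in the Kupffer values was not tested. Whether plasmacytoid dendritic, T or NK cells bear on the levels of the members was not tested either.

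**Figure D4:**
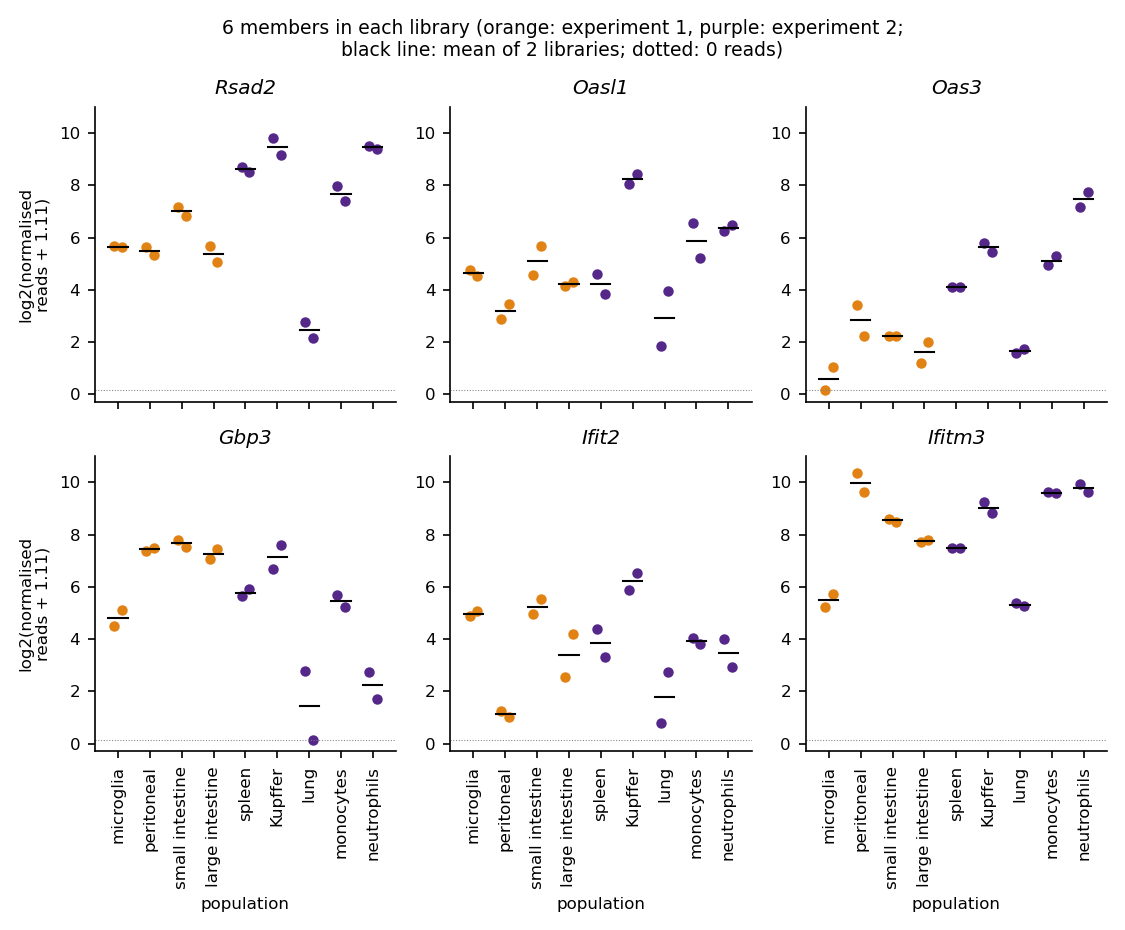
Level of 6 members in every library, as log2 of normalised reads plus 1.11 (vertical axis), for 9 populations (horizontal axis); each point is a library, orange for experiment 1 and purple for experiment 2, and the line is the mean of 2. Oasl1 peaks in Kupffer cells (266 and 349 normalised reads), Oas3 in neutrophils (144 and 216), Gbp3 is low in lung and neutrophils, Ifit2 in peritoneal and lung macrophages, and Ifitm3 in microglia and lung macrophages.

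In neutrophils members were called in both directions, as were genes in general. Against the rest of experiment 2, 12 members rose (15% of all genes) and 6 fell (20.2%). Without the lung in the reference 6 rose (14.3%) and 8 fell (19.6%), shares of the members close to those of all genes, so these counts show nothing particular to the list. The split also moved with scaling, and the neutrophil columns have the largest totals: with all library totals made equal, which moved the median of all genes in neutrophils to -0.87 (log2) from -0.25, 7 rose and 12 fell, and with quantile normalization 9 rose and 7 fell. Oas3, Cmpk2, Samd9l, Sp100, Gbp3, Mx1, Mx2 and Ifi44 kept their calls under both scalings.

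On the high side, Oas3 was at 144 and 216 normalised reads in neutrophils and at 54.9 or less in every other library, with a log2 fold change of 3.34 ± 0.50 (adjusted p = 3.66e-05). Cmpk2 was at 157 and 248 against at most 76.7 elsewhere, with a log2 fold change of 3.24 ± 0.51 (adjusted p = 6e-05). Samd9l, a restrictor of translation and of poxviruses, was at 147 and 85.7 against at most 36.3 elsewhere (2.77 ± 0.58, adjusted p = 0.000968). For these 3 genes and for Sp100, at 284 and 367 and a log2 fold change of 2.50, the neutrophil libraries lay above all 16 others. Isg20 and Ifitm3 rose by 2.28 and 1.93. All 6 kept their call without the lung in the reference. Rsad2, Rtp4, Ifit1, Usp18, Zbp1 and Ddx58 also rose against the whole reference, by 2.40 to 1.04, and were not called without the lung.

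On the low side, Mx1, Mx2 and Ifi44 were listed at 0 in both neutrophil libraries, where 3 reads were worth 4.13 and 6.59 normalised reads. Set against the mean of that limit, Mx1 was at least 5.34-fold higher in Kupffer cells and at least 4.24-fold higher in monocytes, and Ifi44 at least 6.83-fold higher in Kupffer cells. Mx2 was at least 3.04-fold higher in Kupffer cells, 2.83-fold in spleen and 1.37-fold in monocytes, and Mx1 was at least 1.43-fold higher in spleen. Lung macrophages were at 0 as well for Mx2 and Ifi44. At this limit a fall as large as the call threshold is therefore not shown against every population of the experiment. Gbp3 was at 5.51 and 2.2 in neutrophils, with a log2 fold change of -2.74 ± 0.48 (adjusted p = 0.000165). Bst2, at 101 and 52.8, and Ly6e, at 748 and 575, were below all other libraries of the experiment, with log2 fold changes of -2.04 and -1.96. Ifi44 was no longer called without either neutrophil library (adjusted p = 0.105 and 0.122).

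Monocytes, also from bone marrow, were set against the neutrophils. In this pair 6 members rose in monocytes (14.3%, against 12.2% of all genes) and 5 fell (11.9%, against 11.3%). These shares are close to those of all genes, so the counts show nothing particular to the list. The 6 were Mx1, Mx2, Gbp3, Ly6e, Bst2 and Parp12. With the neutrophil limit of 3 reads in place of 0, Mx2 was at least 1.37-fold higher in monocytes, so a 2-fold difference is not shown for it. Ly6e was at 5643 and 4838 in monocytes and changed by 2.99 ± 0.28 (adjusted p = 4.26e-07), and Bst2 by 1.96. The 5 lower ones were Oas3, Rsad2, Rtp4, Ddx58 and Isg20, with log2 fold changes from -2.35 to -1.16. These 5 depended on the scaling: with equal library totals 13 members were higher in monocytes and 0 lower, the median of all genes then standing at 0.66, and with quantile normalization 8 were higher and 3 lower. Without monocyte replicate 1 the counts were 4 higher and 2 lower.

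Against the rest of experiment 2, 6 members rose in monocytes (6.35% of all genes) and 0 fell (9.33%), with 16 higher and 1 lower by limma at an unadjusted p under 0.05. Without the lung, 2 rose (6.88%), namely Ly6e (1.61) and Zbp1 (1.29), and 3 fell (9.81%), namely Isg15 (-1.41), Rsad2 (-1.50) and Rtp4 (-1.58). Zbp1, which starts cell death on sensing nucleic acid in the left-handed Z form, was at 184 and 184 in monocytes, above all other libraries of the experiment (1.93 ± 0.36, adjusted p = 0.00113 against the whole reference). Without either monocyte library 3 members rose, and with equal library totals 13 rose.

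Against the rest of experiment 2, 9 members rose in spleen red pulp macrophages (10.1% of all genes) and 3 fell (6.17%), but without the lung 1 rose (10.9%) and 8 fell (7.06%). Rsad2 shows how: at 414 and 368 in spleen it lay under Kupffer cells and neutrophils and over monocytes, and its log2 fold change went from 1.34 (called) to -0.26 (not called). The 8 lower members without the lung were Oasl1 (-2.62), Samd9l, Zbp1 (-2.14), Oasl2 (-2.01), Ifitm3 (-1.99), Oas3, Cmpk2 and Ifit1. Dtx3l, a ubiquitin ligase that partners Parp9, was the 1 higher member, at 171 and 222 in spleen. Oasl1, Oasl2 and Zbp1 fell with either reference. Without spleen replicate 1, 4 members were called against the whole reference (3 higher, 1 lower), and without replicate 2, 3 were (3 higher, 0 lower).

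In microglia 4 members rose (9.52%, near the 10.8% of all genes) and 11 fell (26.2%, against 15.2%) against the 3 other populations. The lower ones were led by Ifitm3, at 36.6 and 52.1 normalised reads against 208 to 1311 in the other libraries of experiment 1, with a log2 fold change of -3.28 ± 0.22 (adjusted p = 3.54e-09). Zbp1 was at 10.3 and 12.1 against 60.5 to 164 (-3.00 ± 0.38, adjusted p = 9.45e-06). In lung macrophages, of the other experiment, these genes stood at 40.5 and 37.1 and 5.69 and 23.2.

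Gbp2, Gbp3 and Oas1a also fell in microglia, with log2 fold changes of -2.79, -2.65 and -2.18, and all their microglia libraries lay below the rest of experiment 1. Trim25 was at 9.87 and 7.88 with a log2 fold change of -1.68 ± 0.37 (adjusted p = 0.00234). The 4 that rose were the 3 IFIT genes and Slfn8. Slfn8 was at 210.0 and 212, above all other 16 libraries, with a log2 fold change of 1.35, and Ifit1 was at 77.6 and 107 against 14.0 to 65.4 in the other libraries of experiment 1 (1.28). The counts were sensitive to single libraries: without microglia replicate 1 there were 1 higher and 8 lower members, and without replicate 2 there were 0 higher and 8 lower.

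Peritoneal macrophages had high Ifitm3 and low IFIT genes. In all they had 3 members that rose (7.03% of all genes) and 7 that fell (14.4%), shares close to those of all genes. With equal library totals 5 rose and 5 fell, and with quantile normalization 5 rose and 6 fell. Ifitm3 was at 1311 and 787, above the other libraries of its experiment, and rose by 2.73 ± 0.22 (adjusted p = 5.72e-08). The IFIT genes were at the bottom: Ifit2 was at 1.26 and 0.903 (log2 fold change -3.41 ± 0.60, adjusted p = 0.00036), Ifit3 at 13.9 and 3.61 (-2.61 ± 0.44, adjusted p = 0.000252) and Ifit1 at 22.7 and 14 (-1.76 ± 0.28, adjusted p = 0.00015), all below every other library of experiment 1. Rtp4, at 267 and 253, rose by 1.79. The log2 fold change was -1.83 for Ly6e, -1.29 for Bst2 and -1.05 for Isg15. The third gene that rose, Cmpk2 (2.00), lost its call without either peritoneal library (adjusted p = 0.0885 and 0.0562). Since each population is part of the other's reference, the low peritoneal values also enter the microglia result: for Ifit2 and Ifit3 the microglia libraries (28.2 and 32.4, and 57.2 and 70.9) overlapped or lay below those of the small intestine (29.8 and 45.8, and 68 and 77.3).

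In small intestine macrophages 5 members rose (6.25% of all genes) and 0 fell (1.82%), with 35 of 42 values positive and a median of 0.70, while the median of all genes was 0.10. By limma at an unadjusted p under 0.05, 18 were higher and 1 was lower. The 5 were Ifi44, Ifit2, Zbp1, Ifit3 and Rsad2. Rsad2 was at 144 and 112, above the other libraries of experiment 1, with a log2 fold change of 1.50 ± 0.27 (adjusted p = 0.00141), and Zbp1 was at 122 and 164 (1.72 ± 0.38, adjusted p = 0.00631). The calls hung on few libraries: 0 were left without small intestine replicate 3, where Rsad2 had an adjusted p of 0.0633 and Zbp1 of 0.0541, and 1 without replicate 4. Without microglia replicate 1, 2 were left, and 3 without microglia replicate 2. There were 2 without peritoneal replicate 2 or large intestine replicate 2, and 3 without either neutrophil library, which enters only through the pooled spread.

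In large intestine macrophages 0 members rose (7.12% of all genes) and 1 fell (2.14%), Rtp4, at 54.2 and 59.3 (-1.11 ± 0.26, adjusted p = 0.00948). By limma at an unadjusted p under 0.05, 4 were higher and 5 lower. It was not called without either large intestine library (adjusted p = 0.143 and 0.0757; 0 members called), and 2 members were called without either lung library. Between the intestinal populations 1 member rose in the small intestine (0.425% of all genes) and 0 fell (0.776%): Rsad2, at 144 and 112 against 50.7 and 32.6, with a log2 fold change of 1.62 ± 0.33 (adjusted p = 0.0166). This call was lost without small intestine replicate 3, small intestine replicate 4 or large intestine replicate 3 (0 called in each). Of the 42 values 34 were positive, with a median of 0.55, and by limma at an unadjusted p under 0.05, 7 were higher and 1 lower. Epithelial markers summed to 263 to 645 in the small and 919 to 1047 in the large intestine; their part in these values was not tested.

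Members differed widely in how much they varied. The range between the lowest and highest population mean on the log2 scale was 7.02 for Rsad2, 6.88 for Oas3 and 6.21 for Gbp3. Over the 9 population means, the members nearest to the mean of the other members were Rsad2 (Pearson r 0.951), Usp18 (0.942), Slfn5 (0.924) and Oas2 (0.92), and the farthest were Herc6 (-0.161), Trim25 (0.318), Gbp3 (0.359) and Bst2 (0.392). These correlations describe 9 means that share libraries, depth and experiment. The 16 members with an ISRE core in the window had a median range of 3.96 (1.77 to 7.02), and the 16 whose window held none had 3.31 (1.21 to 5.87), so that the spans overlapped almost wholly. Oas3 and Gbp3, whose windows are printed above, both carry cores, and Oas3 was highest in neutrophils, where Gbp3 was among the lowest.

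The genes outside the list whose population means followed the list most closely were Vps26c (r 0.935), Irf7 (0.924), Ogfr (0.907), Abcc10 (0.903), Fermt3 (0.896), Ptprj (0.893), Rabggta (0.883), Slc26a11 (0.881), Rngtt (0.88) and Birc2 (0.872), over 9 populations. Irf7 is the only one of them on the pathway lists used here, and Stat2 (0.745) was lower in this order.

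The interferon genes that had a row were barely seen, and Ifna1, Ifna2, Ifne, Ifnl2 and Ifnl3 had none. Ifnb1 reached 2.08 normalised reads in its highest library, Ifna4 3.23, Ifnk 1.26 and Ifng 1.99, and they were at 0 in 14, 9, 13 and 16 of the 18 libraries; none passed the filter. These values are around 1 to 3 reads, so a difference in interferon transcripts was not detectable at this depth.

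Among the 6 tested receptor genes, Ifnar2, a chain of the type I receptor, was at 389.9 and 308 in Kupffer cells and at 104 and 68.6 in lung macrophages, with log2 fold changes of 1.04 ± 0.21 (adjusted p = 0.00158) and -1.49 ± 0.21 (adjusted p = 4.68e-05). Of the 6, 3 rose (9.48% of all genes) and 1 fell (6.97%) in Kupffer cells. In lung 0 rose (9.05% of all genes; also 0 by limma at an unadjusted p under 0.05) and 3 fell (8.82%). Shares of 6 genes are coarse, 1 gene being 16.7%. In microglia Ifnar2 was at 387 and 373 and 2 of the 6 rose (10.8% of all genes), while in peritoneal macrophages 3 fell (14.4%), Ifnar2 with a log2 fold change of -1.23. Ifnlr1, the receptor chain for interferon lambda, was high in neutrophils, at 154 and 154 against at most 2.92 in every other library.

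Of 16 signalling and transcription genes, 4 rose (25%, against 9.48% of all genes) and 0 fell (6.97%) in Kupffer cells. In lung macrophages 0 rose (9.05%) and 7 fell (43.8%, against 8.82%); by limma at an unadjusted p under 0.05 both counts of 0 were also 0. Irf7 was at 34.8 and 63.1 in lung and 1883 and 1208 in Kupffer cells, with 910.0 and 974 in spleen, 776 and 749 in monocytes and 565 and 655 in neutrophils. Its log2 fold changes were -4.23 ± 0.24 (adjusted p = 1.41e-09) in lung and 1.99 ± 0.24 (adjusted p = 1.07e-05) in Kupffer cells, and in microglia, at 34.8 and 55.6, -2.14 within experiment 1. Stat2 and Irf9 fell in lung, with log2 fold changes of -1.62 and -2.52; in Kupffer cells Stat2 rose by 1.44 and Irf9, at 71.7 and 108, did not pass (-0.33). In neutrophils Irf9 rose by 1.71 and Stat2 fell, at -1.04 on the log2 scale. For Stat2 and Irf9 both lung libraries lay below every other library of experiment 2.

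**Figure D5:**
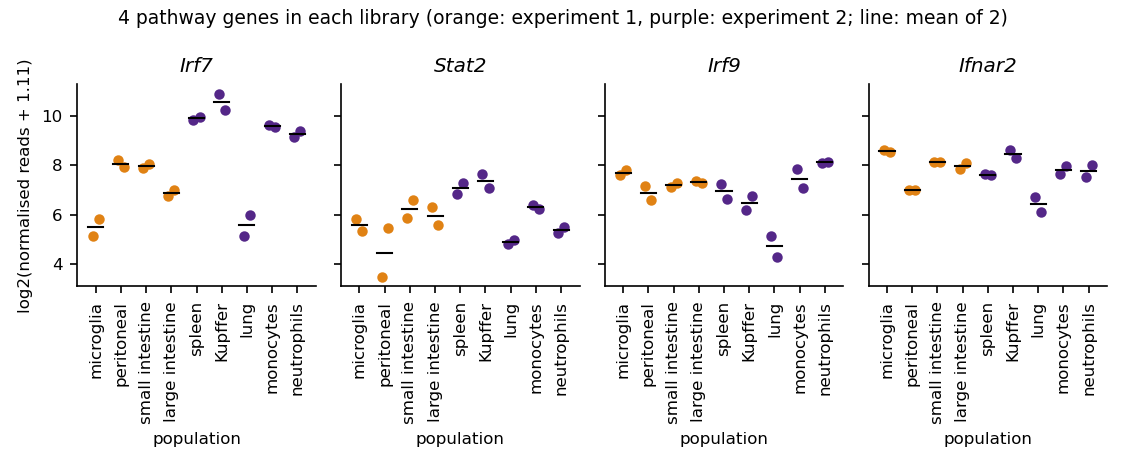
Level of 4 pathway genes in every library, as log2 of normalised reads plus 1.11 (vertical axis), for 9 populations (horizontal axis), orange for experiment 1 and purple for experiment 2; the line is the mean of 2 libraries. All 4 genes are lowest among the purple points in lung macrophages, and Irf7 is highest in Kupffer cells (1883 and 1208 normalised reads).

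A list of genes that act upstream of interferon holds nucleic acid receptors, Tlr4, which senses bacterial lipopolysaccharide, and adaptors, a chaperone, kinases and enzymes that act on nucleic acids or nucleotides. Of its 17 tested genes, 3 rose (17.6%, against 9.48% of all genes) and 0 fell (6.97% of all genes; also 0 by limma at an unadjusted p under 0.05) in Kupffer cells. In lung 1 rose (5.88%, against 9.05%) and 4 fell (23.5%, against 8.82%). The gene that rose in lung was Mavs, the mitochondrial adaptor of the RNA helicases, at 49.3 and 60.9 (1.63 ± 0.41, adjusted p = 0.00777), whereas in neutrophils Mavs was at 1.38 and 0 (-4.71). Tlr9, the endosomal receptor for DNA, was at 3.16 and 5.53 in lung and at 13.9 and 1.81 in peritoneal macrophages. In microglia 7 of the 17 rose (41.2%, against 10.8% of all genes), Tlr7, the receptor for single-stranded RNA, by 1.90 and Tlr9 by 2.17. The 2 that fell (11.8%) are near the share of all genes (15.2%).

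A further list of 30 interferon-responsive genes outside the 42, some of which, Irf7 among them, are also on the signalling list, was counted in the same way. In Kupffer cells 14 of 30 rose (46.7%, against 9.48% of all genes) and 0 fell (6.97%; 1 by limma at an unadjusted p under 0.05), with Iigp1, an immunity-related GTPase, at 63.4 and 71.2 (4.29 ± 0.78, adjusted p = 0.000614) and Ifi204, a DNA sensor, at 2.05 on the log2 scale. In lung macrophages 17 fell (56.7%, against 8.82%) and 1 rose (3.33%, against 9.05%). The fallen ones included Ifi204 (-2.73), Irgm1 (-2.50) and the nuclear body protein Pml (-2.56), and the 1 that rose was Ifi30, a lysosomal reductase, at 1364 and 919.9 (1.07). In the small intestine 10 of the 30 rose (33.3%, against 6.25%) and 0 fell (1.82%; again 1 by limma at an unadjusted p under 0.05), led by Cxcl9, a chemokine induced by interferon gamma, at 192 and 406 (5.68 ± 0.64, adjusted p = 1.69e-05), with Cxcl10 at 2.48. In peritoneal macrophages both chemokines were near 0 (Cxcl9 at 0 and 0, Cxcl10 at 0 and 3.61), and 4 of the 30 rose (13.3%, against 7.03%) and 6 fell (20%, against 14.4%). In microglia 1 rose (3.33%, against 10.8%) and 11 fell (36.7%, against 15.2%), with Ifi203 at 0 and 0.927 and Nlrc5, an activator of the class I antigen presentation genes, at 0 and 4.64.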

How the data were processed

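Per the labels' protocols, mRNA was captured from sorted cells, brought to like amounts by a qPCR for actin beta, indexed at reverse transcription, pooled and amplified by in vitro transcription. The submitters' processing notes name TopHat and mm9; version, counter, annotation and normalization were not given in the sources used here. In the deposited table the authors gave 1 signal value per transcript and library, called normalised reads. In each library 86.6% to 88.9% of values above 0 were whole multiples of 1 step (tolerance 0.01 read), taken as 1 read, so values were read as counts divided by 1 factor per library, some of them fractional, and no count test was used. The table has 20814 rows, 235 without a symbol; 20368 matched RefSeq names. Mx2 has the same values as a row without a symbol. Members of families with near-identical copies (Oas1a, Ifit1, Ifit3, Gbp2, Gbp3, Trim30a, Slfn8) are uncertain, since how shared reads were split is not given.

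Values as log2(value + 1.11) entered a limma 3.58.1 model (R 4.3.3) with 1 factor of 9 populations, a mean-variance trend and 9 residual degrees of freedom, on genes at 5.55 or more in at least 2 libraries. The step was tested on simulated data. Promoters came from RefSeq on GRCm38.p6, matched by symbol; no coordinate of the mm9 alignment was used. There were 12 comparisons and F tests. Members, lists and tests were chosen with earlier results of these data known. Any member may be named; full statistics go to at most 8 called members per comparison with the largest change, and 10 genes were ranked by likeness. Some members beyond these 8, and the values without lung or Kupffer cells in the reference, were chosen after seeing the data. Levels came from Python 3.11.15, pandas 2.3.3, numpy 2.4.6 and matplotlib 3.10.9. Values of 1 gene of the pathway lists, which is included in their counts, are not reported here. Alternatives changed the pseudocount, filter, scaling, rows per symbol, trend, block, reference and libraries.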

Additional observations from a re-analysis of the deposited data

How the results depend on the processing

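Of 77 named values, 38 kept their call under every alternative tried, 38 lost it in at least 1 and 1 reversed: Rsad2 in spleen, -0.26 (log2) without lung macrophages in the reference, an alternative chosen after seeing the data. The count of members differing among 9 populations was 20 within experiment 1. Called members numbered 2 with a 5 times smaller pseudocount, 3 with quantile normalization and 3 without the trend in the small intestine, 0 without the trend between small and large intestine, 13 with equal library totals in monocytes, 13 in Kupffer cells without the lung in the reference, and, against the other 8 populations, 10 in monocytes and 5 in the large intestine. Of all called genes, equal totals moved the share that rose from 42.6% to 17.3% in neutrophils, from 51.9% to 82.6% for monocytes against neutrophils, from 40.5% to 53.9% in monocytes, from 57.7% to 68% in Kupffer cells, from 62% to 72.6% in spleen and from 32.8% to 43.5% in peritoneal macrophages (45.8% with quantile normalization); quantile normalization moved it from 77.5% to 63.7% in the small and from 76.9% to 66.4% in the large intestine. Equal totals shifted the median of all genes by more than 0.1 in several comparisons (to 0.24 in Kupffer cells and spleen, 0.13 in lung and monocytes). The causes were not tested.

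Leaving out each library in turn gave 37 to 40 members differing among the 9 populations, 8 to 15 called in microglia, 7 to 11 in peritoneal macrophages, 0 to 5 in the small and 0 to 2 in the large intestine, 3 to 13 in spleen, 16 to 23 in Kupffer cells, 29 to 36 in lung, 3 to 8 in monocytes, 15 to 20 in neutrophils, 0 to 1 between small and large intestine, 5 to 9 between Kupffer cells and spleen and 6 to 13 between monocytes and neutrophils. A lone library left in a population was assumed to vary like the others.

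The replicate numbers were not used to pair the samples. Over 14 pairs of same-numbered libraries the correlation of deviations ran from -0.0416 to 0.0127. Some of these pairs repeat each other, since the 2 libraries of a population deviate equally and oppositely from their mean. No shared deviation was seen, which cannot show whether same-numbered libraries shared a mouse or a sort. With the number as a replicate block, called members numbered 12 in Kupffer cells (12 higher, 0 lower), 23 in lung (0 higher, 23 lower), 1 in the small and 2 in the large intestine, 0 between small and large intestine, 3 between Kupffer cells and spleen and 7 between monocytes and neutrophils; the block changed no other count by over 1.5 times. Replicate 1 of Kupffer cells and of lung macrophages had no number in its label, and small intestine replicate 4 shared its number with no other library. Each of these libraries was alone in its block and so added nothing to the comparisons of its population. The block counts that involve these populations therefore cannot show an effect of pairing. Depth limits the members near 0: Mx1, Mx2 and Ifi44 rest on few reads.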
